A study of Homo sapiens with 3 samples.

Results

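NF-kB subunits and inhibitors of the pathway, some of which it induces, were measured as RNA in 3 populations of 1205Lu. This is a human melanoma line derived from a lung metastasis in a mouse xenograft. The set holds 10 genes, NFKB1, NFKB2, REL, RELA, RELB, NFKBIA, NFKBIB, NFKBIE, TNFAIP3 and BIRC3, of 30990 genes named on the array, and takes every non-control probe that carries one of these names on the array. They have 13 probes of 41000, and 8 of the 10 genes have 1 probe. The original monolayer (OM) was grown for 14 days in standard medium, RPMI-1640 with 10% fetal calf serum (FCS). Melanoma bodies (MB), the adherent 3D aggregates of the line, were collected after 14 days in human embryonic stem cell (hESC) medium, a DMEM/F-12 base without FCS that held 20% of the serum substitute KnockOut Serum Replacement. The new monolayer (NM) grew out of such bodies when they were returned to the standard medium for 10 days, and residual bodies were removed before RNA was taken. No population carried a genetic change or a drug, and each was represented by 1 Agilent 1-colour array (Cy3) of 1 culture, all on 1 slide. Growth as bodies, the medium and the individual culture cannot be told apart in this design, and no test across samples can be made.

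NF-kB transcription factors are dimers of 5 related proteins. In resting cells they are held in the cytoplasm by inhibitors of the IkB family, and signals from tumour necrosis factor, interleukin-1 or Toll-like receptors activate a kinase complex that marks the inhibitor for destruction, so that the dimer enters the nucleus. Many of the genes it switches on encode its own restraints, among them the inhibitor encoded by NFKBIA and the ubiquitin-editing enzyme encoded by TNFAIP3, and others encode chemokines and cytokines for which the pathway is known in melanoma. A second, slower branch works through processing of the NFKB2 precursor and its partner RELB, and is restrained by BIRC3 together with TRAF proteins. The arrays measured RNA, not the amount, processing or location of the proteins.

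Dimers bind short kB sites in DNA, and the kB consensus was looked for on both strands in the reference promoters (RefSeq, GRCh38.p14, 300 bases each, of which 250 lie before and 50 after the start site). Promoters of 8 of the 10 members were matched. Of these, 5 (62.5%), those of NFKB1, REL, NFKBIA, TNFAIP3 and BIRC3, held a match to the kB consensus, against 1562 (5.72%) of all 27305 promoters, and 2 (25.0%), TNFAIP3 and BIRC3, held 2 separate matches, against 75 promoters (0.275%). Matches on both strands that overlapped, as in the promoter of REL, were counted as 1. The promoters of NFKB2, RELA and NFKBIB held no match in this window. The 250 bases before the start site are shown for NFKBIA and BIRC3, which were the furthest apart of the members between NM and OM, and for TNFAIP3, which holds 2 matches like BIRC3 but ordered the arrays differently. They lie at chr14:35404750-35404999 (minus strand), chr11:102317234-102317483 (plus strand) and chr6:137867009-137867258 (plus strand), are written 5′ to 3′ along the gene, and have the kB matches in capitals. A match is a run of letters and no measurement of binding. The members were listed as genes of the NF-kB pathway, some of them its known targets. Their share of matches is thus no independent result.
NFKBIA: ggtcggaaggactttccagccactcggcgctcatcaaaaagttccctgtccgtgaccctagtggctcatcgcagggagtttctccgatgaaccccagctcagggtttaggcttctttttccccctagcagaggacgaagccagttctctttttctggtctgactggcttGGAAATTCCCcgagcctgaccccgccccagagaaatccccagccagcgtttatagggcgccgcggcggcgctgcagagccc
BIRC3: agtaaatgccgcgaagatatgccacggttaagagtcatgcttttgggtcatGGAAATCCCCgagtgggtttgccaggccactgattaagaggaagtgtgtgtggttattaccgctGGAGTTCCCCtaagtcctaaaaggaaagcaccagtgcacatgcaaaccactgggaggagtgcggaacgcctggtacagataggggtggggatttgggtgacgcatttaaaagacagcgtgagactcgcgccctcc
TNFAIP3: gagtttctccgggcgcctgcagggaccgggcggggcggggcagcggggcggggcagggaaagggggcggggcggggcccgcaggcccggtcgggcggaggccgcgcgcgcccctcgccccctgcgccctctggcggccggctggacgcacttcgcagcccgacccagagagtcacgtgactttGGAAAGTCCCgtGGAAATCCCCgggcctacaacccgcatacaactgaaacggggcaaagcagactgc

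Signals are given in arbitrary units (a.u.), after each array was scaled so that the mean of the 3 housekeeping genes GAPDH, ACTB and HSP90AA1 equalled that on OM. Unscaled, that mean was 131555 a.u. in OM, 128596 in MB and 115402 in NM. All 13 probes were well above background on all 3 arrays. The SD that the scanner software's error model attaches to a member's signal was 9.98% to 11.1% of it, which gives a log2 ratio of 2 arrays an SD of 0.20 to 0.22. Replicate spots, which exist for NFKB1, NFKB2 and RELA, varied less: over 200, 197 and 195 probes printed in 10 spots, the SD of a single spot's log2 ratio was 0.07 for MB over OM, MB over NM and NM over OM. Both measures are technical and leave out the variation between cultures. The melanoma genes SOX10, S100B, MITF, PMEL and DCT were well above background on every array. MLANA was so on OM and MB alone (unscaled 31.3 and 39.5 a.u., and 26.5 on NM). TYR and TYRP1, which encode enzymes of pigment synthesis, were not on any. Among 7 leukocyte genes 5 were above background on every array (CD3E, CD79A, CD14, CSF1R and ITGAM), and PTPRC and LYZ were at background throughout. The summed unscaled signal of the 7 was 1113 a.u. in OM, 934 in MB and 1315 in NM, with CD79A at 755, 534 and 809. Of 4 endothelial genes CDH5 was at background on all arrays, VWF was above it on all (unscaled 185, 390.0 and 95.6 a.u. for OM, MB and NM), PECAM1 on MB alone (87.7 a.u.) and TEK on NM alone (203 a.u.). Of 4 epithelial genes EPCAM, CDH1 and KRT5 were at background throughout and KRT19 was above it on every array, at 34.5 to 42.2 a.u. Of 4 fibroblast genes LUM and COL1A1 were at background throughout, DCN was above it on MB alone (26.8 a.u.), and PDGFRA, which some melanoma cells express too, read 5519, 9882 and 3174 a.u. The part of other cell types in the members' values was not tested.

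Among the 10 members, BIRC3, NFKBIA, NFKB2 and RELB each had their lowest signal in MB and their highest in NM, by 6.79-fold, 3.54-fold, 3.41-fold and 2.06-fold. NFKB1 and RELA were also highest in NM, REL and the brightest NFKBIB probe were lowest there, and TNFAIP3 and NFKBIE were highest in MB. Counting each gene by its brightest probe, 1 member (BIRC3) was 2-fold or more lower in MB than OM, where 4.66% of 22222 genes were, and 0 were 2-fold or more higher, where 6.66% of genes were. Against NM, 4 members (NFKB2, RELB, NFKBIA and BIRC3) were 2-fold or more lower in MB, where 9.87% of 21939 genes were, and 1 (NFKBIB) was higher, where 12.4% were. In NM against OM, 2 members (NFKBIA and BIRC3) were 2-fold or more higher, where 4.59% of 21596 genes were, and 0 were lower, where 5.89% were. At the 5-fold threshold of the study, with the brighter array over 100 a.u., 1 member was called, BIRC3, lower in MB than NM, where 1.35% of genes were. No member passed it in the other directions, for which the shares of all genes were 1.83% higher in MB than NM, 0.554% lower and 0.828% higher in MB than OM, and 0.454% lower and 0.620% higher in NM than OM. The 3 comparisons share arrays, so their values are set side by side and are not independent. The median log2 ratio of the members was 0.04 for MB over OM, -0.33 for MB over NM and 0.50 for NM over OM, beside 0.08, 0.00 and 0.05 over all genes measured. The first of these medians turned negative, down to -0.23, with scaling to the 75th percentile, the quantiles or the spike-ins. RNA came from whole cultures, in which fewer cells that express a gene and less RNA per cell cannot be told apart.

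**Figure D1:**
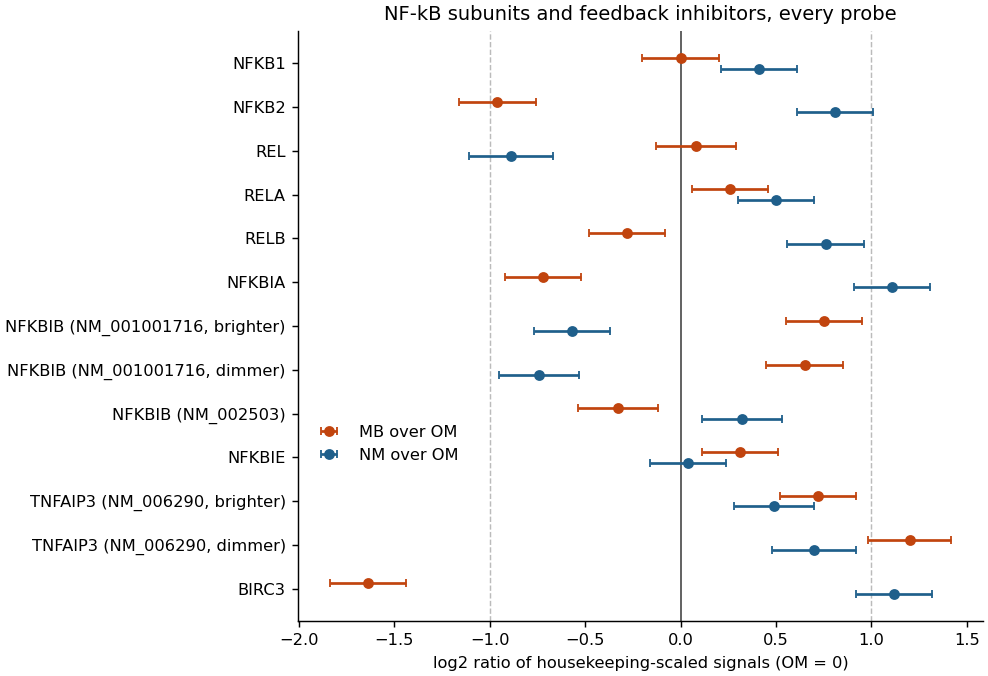
Each row is a probe of a member. Points show the log2 ratio of scaled signals, MB over OM in red and NM over OM in blue (OM is the line at 0, dashed lines mark 2-fold), and bars are 1 SD of the ratio from the error model, from 1 array per population. BIRC3 sits at -1.64 for MB and 1.12 for NM, while REL and the 2 NFKBIB probes of one accession have NM to the left of 0.

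NFKB1 encodes the precursor of the smaller subunit of the classical dimer. Its probe (chr4:103895057-103895116, hg17) averaged 12285 ± 439 a.u. (mean ± SD of 10 spots) in OM, 12277 ± 352 in MB and 16346 ± 614 in NM. Spots ran from 11454 to 13013 a.u. on OM, from 11481 to 12729 on MB and from 15217 to 17386 on NM. MB and OM overlapped spot by spot, with a log2 ratio of 0.00, whereas every NM spot lay above every spot of the other arrays, 1.33-fold over OM by the means. This NM excess was 0.41 on the log2 scale, and 77.8% of genes had a lower ratio. Over the alternatives it lay between 0.22, with no scaling, and 0.48.

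NFKB2 encodes the precursor of the alternative branch. Its probe, whose 60 bases cover 177 bases of the genome (chr10:104151043-104151219, hg17), gave 1853 ± 51.0 a.u. (mean ± SD of 10 spots) in OM, 950.0 ± 31.7 in MB and 3241 ± 123 in NM. The spots of the 3 arrays did not overlap: the highest on MB was 993 a.u., the lowest and highest on OM were 1761 and 1920.3, and the lowest on NM was 3007. NFKB2 was 1.95-fold lower in MB than OM (log2 ratio -0.96), 3.41-fold lower in MB than NM (-1.77) and 1.75-fold higher in NM than OM (0.81). Only 5.79% of genes had a lower ratio of MB to OM, and 3.30% a lower ratio of MB to NM. The first of these ratios stood just short of 2-fold and passed it with 3 other scalings, down to -1.24.

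RELA encodes the activating subunit of the classical dimer. Its probe (chr11:65178227-65178286, minus strand, hg17) gave 2082 ± 90.8 a.u. on OM (8 spots), 2497 ± 50.5 on MB (9 spots) and 2948 ± 73.5 on NM (9 spots). Here the order was OM, MB, NM, and the scaled spots of the 3 arrays did not overlap. They reached at most 2199 a.u. on OM, ran from 2451 to 2605 on MB and began at 2835 on NM. Without scaling MB and NM overlapped, the highest MB spot at 2547 a.u. and the lowest NM spot at 2487. The differences were small, 1.20-fold for MB over OM, 1.42-fold for NM over OM and 1.18-fold for NM over MB. The first and last lay within 2 SD of the error model. On the log2 scale MB over OM reached -0.01 with spike-in scaling, and MB over NM, at -0.24, was -0.08 with no scaling.

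**Figure D2:**
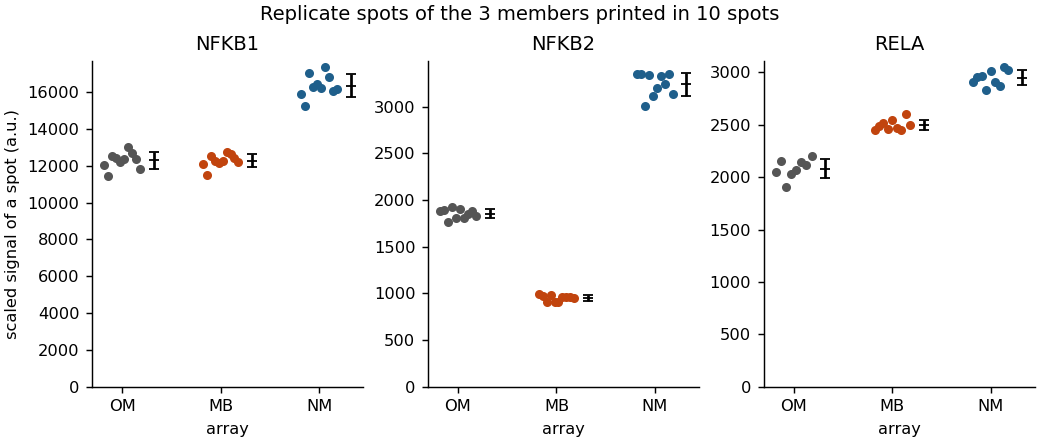
Scaled signal in a.u. of each replicate spot of NFKB1, NFKB2 and RELA on the OM, MB and NM arrays, with outlier spots left out. Black marks show the mean and SD over spots, which are technical repeats on 1 array per population. NFKB2 has 3 separate levels with MB lowest, and in NFKB1 the NM array alone stands apart. RELA has 3 levels with OM lowest after scaling, although its unscaled MB and NM spots overlap.

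RELB encodes the transcriptionally active partner of processed NFKB2. The single spot of its probe (chr19:50233225-50233284, hg17) read 36339 a.u. in OM, 29865 in MB and 61597 in NM. NM was the array that stood apart, at 1.70-fold over OM and 2.06-fold over MB. The difference of MB from OM, -0.28 on the log2 scale, was within 2 SD of the error model. RELB passed 2-fold between MB and NM narrowly, with a log2 ratio of -1.04 that lay between -1.19 and -0.77 over the alternatives.

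REL encodes the subunit best known from lymphocytes and was read by 1 spot (chr2:61061247-61061306, hg17). It gave 303 a.u. in OM, 321 in MB and 164 in NM. In contrast to the other subunit genes it was lowest in NM, 1.85-fold below OM (log2 ratio -0.89) and 1.96-fold below MB. The ratio to OM shrank to -0.61 with normexp background correction and to -0.66 with no background subtraction. OM and MB differed by 0.08 on the log2 scale, within 2 SD of the error model, and this small difference changed sign with 3 of the scalings.

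Among the classical inhibitors, NFKBIA encodes the one that is itself an early NF-kB target. Its spot (chr14:34940539-34940598, minus strand, hg17) read 37679 a.u. in OM, 22941 in MB and 81157 in NM. NM was high and MB low, with OM between them. NFKBIA was 1.64-fold lower in MB than OM (log2 ratio -0.72), 3.54-fold lower in MB than NM (-1.82) and 2.15-fold higher in NM than OM (1.11), each over 2 SD of the error model. Of all genes measured, 3.11% had a lower ratio of MB to NM and 3.97% had a higher ratio of NM to OM. Its excess in NM over OM fell short of 2-fold with quantile normalization, no scaling or spike-in scaling, the lowest log2 ratio being 0.85.

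NFKBIE encodes another IkB protein and differed least among the inhibitors. Its spot (chr6:44334536-44334595, minus strand, hg17) read 13870.2 a.u. in OM, 17154 in MB and 14249.9 in NM. MB was 1.24-fold over OM and 1.20-fold over NM, and NM was 1.03-fold over OM. All 3 differences lay within 2 SD of the error model.

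NFKBIB, which encodes the remaining IkB protein of the set, was read by 3 probes of 1 spot each that did not give the same order of the arrays. The first 30 of the 60 bases of each are shown because the result depends on which of them is read. The probe of accession NM_002503 lies at chr19:44087506-44087565, and those of NM_001001716 at chr19:44090543-44090602 (the brighter) and chr19:44090451-44090510 (the dimmer), 32 bases apart (hg17).
NFKBIB NM_002503: tggctgtgattcatcagcatgaacccttcc
NFKBIB NM_001001716, dimmer: gcaagaattggagaactcacactgcgaaaa
NFKBIB NM_001001716, brighter: tggggagagatatagtcagagaacccagca

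The brighter probe of NM_001001716 read 1102 a.u. in OM, 1860.4 in MB and 745 in NM, and the dimmer 589.7, 927 and 352. Both were highest in MB and lowest in NM, at 2.50-fold and 2.63-fold for MB over NM. The probe of NM_002503 read 412 a.u. in OM, 328 in MB and 514 in NM, so that MB was lowest, 1.57-fold below NM. Between the probes the log2 ratio of MB to NM ranged from -0.65 to 1.40, a 4.12-fold disagreement. The count of NFKBIB as higher in MB than NM rests on the brightest probe, and with the mean of the probes its log2 ratio was 0.69 and the count fell to 0. NM_002503 is among the accessions that the current RefSeq table gives for NFKBIB and NM_001001716 is not, so the transcript that these probes read is uncertain. The neighbouring genes in that table are SIRT2 and CCER2.

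TNFAIP3 encodes the enzyme (A20) that edits ubiquitin chains on signalling proteins of the pathway and so shuts it off. Its brighter probe (chr6:138245372-138245431, hg17) read 571 a.u. in OM, 942 in MB and 800.5 in NM, and the dimmer (chr6:138243003-138243062), 2309 bases away, 99.1, 228 and 161. Both probes had OM lowest and MB highest. MB over OM was 1.65-fold with the brighter and 2.30-fold with the dimmer probe, and NM over OM 1.40-fold and 1.62-fold. MB and NM differed by 0.23 on the log2 scale with the brighter probe, within 2 SD of the error model, and by 0.51 with the dimmer (1.42-fold), over 2 SD. TNFAIP3 had MB above OM and BIRC3 had MB below OM, and each holds 2 kB matches in the promoter shown above. Whether the matches bear on the order of the arrays was not tested.

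**Figure D3:**
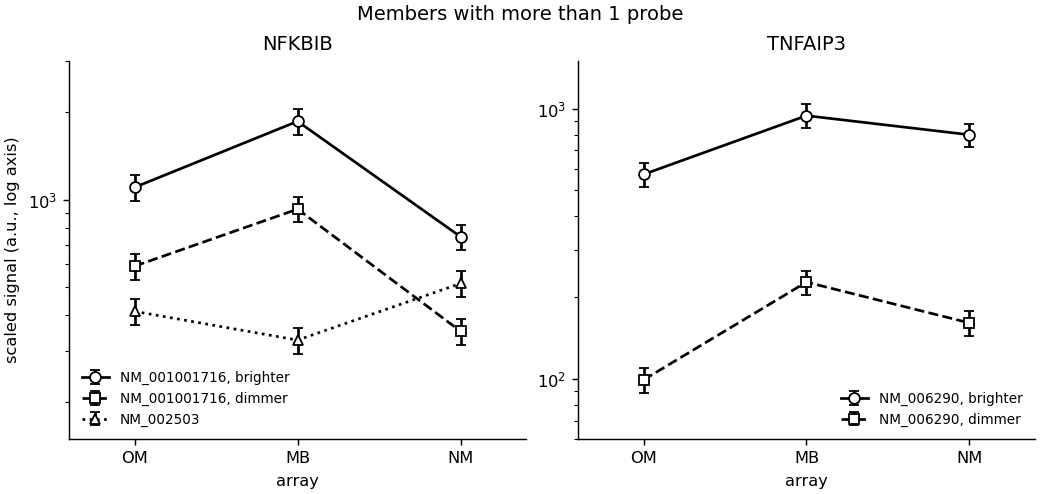
Scaled signal (a.u., log axis) on the OM, MB and NM arrays for every probe of NFKBIB and TNFAIP3, with bars of 1 SD from the error model and lines joining values of the same probe. The NFKBIB probes of NM_001001716 peak in MB at 1860.4 and 927 a.u. while that of NM_002503 is lowest there at 328, and the TNFAIP3 probes both peak in MB.

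BIRC3 encodes a ubiquitin ligase that acts with TRAF proteins, protects cells against death signals and restrains the alternative branch. Its spot (chr11:101713566-101713625, hg17) read 9601 a.u. in OM, 3076 in MB and 20890.2 in NM, and the 3 values lay far apart. BIRC3 was 3.12-fold lower in MB than OM (log2 ratio -1.64), 6.79-fold lower in MB than NM (-2.76) and 2.18-fold higher in NM than OM (1.12). Of the genes measured, 2.35% had a lower ratio of MB to OM, 1.29% had a lower ratio of MB to NM, and 3.84% had a higher ratio of NM to OM. Over the alternatives the log2 ratio of MB to OM lay between -1.92 and -1.64 and that of MB to NM between -2.91 and -2.61, while the excess in NM over OM ranged from 0.93 to 1.19 and so crossed 2-fold. BIRC2, the neighbouring gene of the same family, read 9531 a.u. in OM, 8105 in MB and 13821 in NM, the same order with smaller steps (1.18-fold lower in MB than OM).

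Taking the 13 probes together, the log2 ratio was over 2 SD of the error model in 7 for MB over OM, 10 for MB over NM and 11 for NM over OM. By the smaller SD of replicate spots, 11, 13 and 12 probes were over 2 SD. Neither count was made for the other probes of the arrays. No share over all probes stands beside them, so they are not read as a trait of the members. The probes within 2 SD of the error model in MB against OM were those of NFKB1, REL, RELA, RELB and NFKBIE and the NM_002503 probe of NFKBIB. In the RefSeq table NFKB1, REL, RELA and TNFAIP3 overlap other genes, such as WAKMAR2 for TNFAIP3, and whether the probes read these was not tested. The subunit genes, the IkB genes and the feedback genes each held members that ordered the arrays differently.

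Other genes of the pathway were read from fixed lists, again by their brightest probe. Those named outside the rule given in the methods were picked after their values were seen. List counts are of genes 2-fold or more apart. Over all genes measured, 4.66% were so lower and 6.66% higher in MB than OM. The shares were 9.87% and 12.4% in MB against NM, and 5.89% and 4.59% in NM against OM. Among 11 receptors that signal to NF-kB, 10 were measured between MB and OM, and 1 (CD40) was at least 3.55-fold lower in MB. In the other direction 3 were 2-fold or more higher in MB, IL1RAP (3.81-fold), TNFRSF11A (2.48-fold) and TNFRSF1B (2.15-fold). TLR4, the receptor of bacterial lipopolysaccharide, read 942 a.u. in OM, 1392 in MB and 341 in NM, with MB 4.08-fold above NM. Of the 9 receptors measured in that comparison, IL1RAP (2.17-fold) and TNFRSF11A (2.12-fold) were also 2-fold or more higher in MB, and IL1R1 was 2.07-fold lower. In NM against OM 2 of 10 were 2-fold or more lower, TLR4 (2.76-fold) and CD40 (at least 2.12-fold). The median log2 ratio of the receptors was 0.30 for MB over OM, 0.34 for MB over NM and 0.11 for NM over OM, the last with a range of -0.08 to 0.18 over the alternatives.

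Of 11 adaptors and TRAF proteins, TRAF1, an adaptor that is itself an NF-kB target, passed 2-fold. It read 11092 a.u. in OM, 28962 in MB and 6433 in NM, so that MB was 2.61-fold over OM and 4.50-fold over NM. No adaptor passed 2-fold between NM and OM. The medians, 0.18, 0.09 and 0.02 in the same order, each changed sign under some scalings. Among 14 kinases of the pathway, 1 was lower and 2 were higher in MB than OM, 1 of 13 was higher in MB than NM, and 1 was lower and 2 were higher in NM than OM. IRAK3, which encodes a brake on interleukin-1 and Toll-like receptor signalling, read 113 a.u. on OM from a single spot and was at background on MB and NM, at least 5.71-fold and at least 3.41-fold lower. RIPK1 in MB stood 2.01-fold above OM and 2.35-fold above NM, and IRAK2 read 69.2 a.u. in OM, 139 in MB and 259 in NM. In NM against OM, IRAK2 was 3.74-fold and RIPK2 2.47-fold higher. The kinases had median log2 ratios of 0.26, 0.26 and 0.03, the first and last with a sign change under other scalings, and the subunits of the IkB kinase complex, CHUK, IKBKB and IKBKG, stayed under 2-fold throughout.

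Of 8 other IkB-like and kB-binding regulators, 0 passed 2-fold between MB and OM or between NM and OM. NFKBIZ, an inducible nuclear IkB-like protein, read 955 a.u. in OM, 692 in MB and 1598 in NM and stood 2.31-fold below NM in MB. NKRF, a repressor of NF-kB targets, was 2.18-fold higher in MB than NM. The medians of this list were 0.14 for MB over OM, -0.12 for MB over NM and 0.29 for NM over OM, of which the last alone kept its sign under every scaling. Of 9 other negative feedback proteins, 0 passed 2-fold between MB and OM. OTUD7B, a deubiquitinase, read 265 a.u. in OM, 326 in MB and 59.4 in NM, so the MB signal exceeded that of NM 5.49-fold and NM lay 4.47-fold below OM. ZC3H12A, which encodes an RNase that degrades cytokine transcripts, had the opposite order, 3117 a.u. in OM, 2269 in MB and 6298 in NM, with MB 2.78-fold below NM and NM 2.02-fold above OM. The median log2 ratio of this list was -0.11 for MB over OM, -0.35 for MB over NM and 0.36 for NM over OM, and kept its sign under the scalings tried.

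The known targets of NF-kB were listed as survival genes, adhesion, enzyme and signal genes, and chemokines and cytokines. Of 7 survival genes, 2 were lower in MB than OM, 3 lower in MB than NM and 1 higher in NM than OM, with medians of 0.08, 0.02 and 0.33, of which the last kept its sign under every scaling. SOD2, the mitochondrial superoxide dismutase, read 21126 a.u. in OM, 10218 in MB and 126079 in NM, 12.3-fold lower in MB than NM and 5.97-fold higher in NM than OM. GADD45B, a stress-response gene, stood 3.29-fold below OM and 6.32-fold below NM in MB. CFLAR was 2.29-fold lower in MB than NM, and BCL2A1, at 1.05-fold for MB over OM, and BCL2L1, at 1.33-fold, stayed under 2-fold.

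Of the adhesion, enzyme and signal targets, 5 of 11 measured were lower and 1 higher in MB than OM, 7 of 11 lower and 1 higher in MB than NM, and 5 of 10 higher in NM than OM. Their median log2 ratios were -0.92, -1.56 and 1.04. ICAM1, an adhesion molecule for leukocytes, read 48207 a.u. in OM, 12851 in MB and 104715 in NM, the order of BIRC3 and NFKBIA. MMP9, a matrix protease, was 12.2-fold and PTX3, a secreted pattern-recognition protein, 7.85-fold lower in MB than NM. Both were on the study's own list of genes 5-fold or more lower in MB than OM and NM. CSF2, a myeloid growth factor, was at background on MB and at least 7.67-fold lower there than on NM. PTGS2, the inducible cyclooxygenase, ran the other way, at 52.9 a.u. in OM, 374 in MB and 149 in NM, 7.06-fold higher in MB than OM. That fold rests on a dim OM signal and was not followed under other background steps.

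Of the chemokine and cytokine targets, 8 of 9 measured were 2-fold or more lower in MB than OM and 9 of 9 were so against NM. The medians were -2.35 and -3.87. In NM against OM 5 were higher and 1 was lower by 2-fold or more, and the median was 2.09. CXCL8, a neutrophil chemokine, read 1657 a.u. in OM, 112 in MB and 9213 in NM, an 82.4-fold difference between MB and NM. CXCL1, CXCL2, CXCL3 and CCL20 were 24.8-fold, 28.6-fold, 20.7-fold and 10.6-fold lower in MB than NM, and IL6 and IL1B 14.6-fold and 8.14-fold lower. IL1A was at background on MB, at least 12.8-fold below NM, and in NM it was 2.78-fold lower than in OM. As a list these genes spanned wider ratios than the members, whose largest was the 6.79-fold of BIRC3. CCL2 did not exceed it, at 3.91-fold lower in MB than NM and 2.85-fold lower than OM. From these same arrays, the study had listed CXCL8, CXCL1, CXCL2, CXCL3, IL1A, IL1B and IL6 as lower in MB. Its criterion was 5-fold or more below both OM and NM. The counts, medians and wide ratios of this list thus restate in part that selection. By the brightest probe here, CXCL2 and CXCL3 fell short of 5-fold against OM, at 4.09-fold and 3.81-fold lower in MB.

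**Figure D4:**
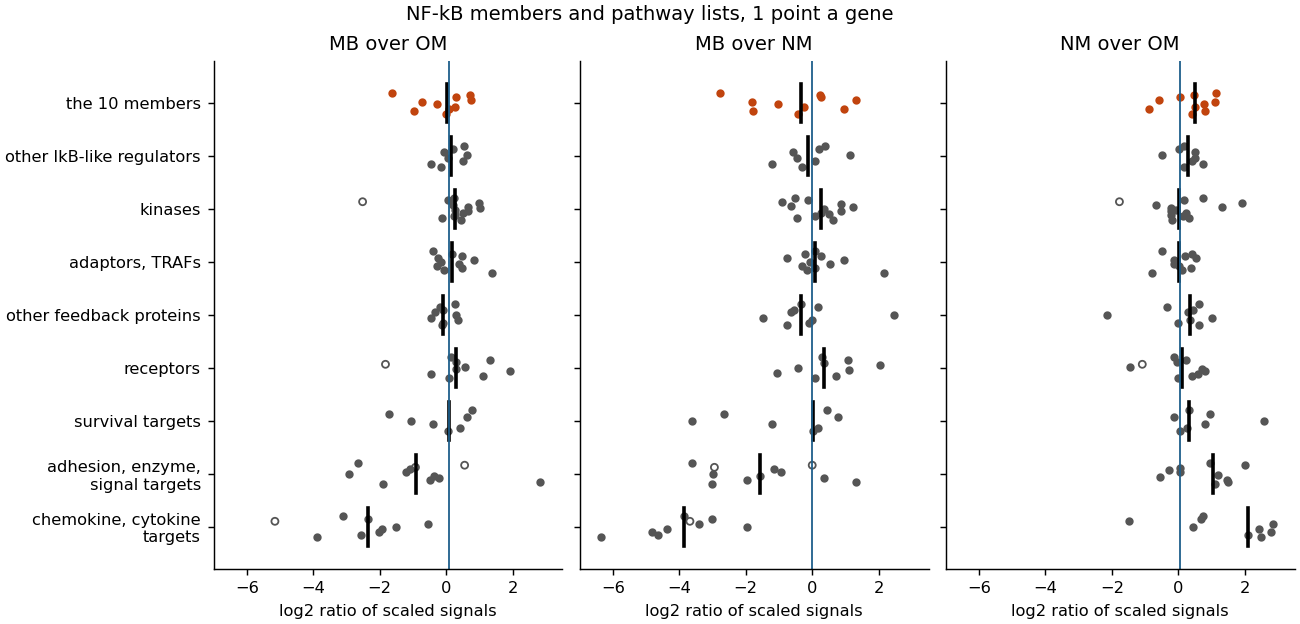
Each point is a gene placed by its log2 ratio of scaled signals in the comparison above the panel. Filled points were measured on both arrays and open points are bounds, thick bars mark the median of a list, and the blue line is the median of all genes measured (0.08, 0.00 and 0.05). The 10 members (red) spread on both sides of that line, and the chemokine and cytokine targets lie to its left in both MB panels, with medians of -2.35 and -3.87.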

How the data were processed

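Total RNA of OM, MB and NM was hybridised to 1 array each. The authors deposited spot intensity values as Feature Extraction (version 9.5.3.1) wrote them, linear and in arbitrary units, after subtraction of a fitted spatial background surface (45015 spots per array have that surface as the background used) and multiplicative detrending, with no scaling between arrays. The series value table holds the same intensity values (130128 of 130128 within 0.1%).

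From these, 77, 79 and 81 outlier spots on OM, MB and NM were dropped, the signal of a probe was the mean of its spots, and arrays were scaled to the housekeeping mean (GAPDH, ACTB, HSP90AA1), following the study. Each array holds 43376 spots for 41000 probes, of which 28746, 29126 and 26516 were well above background. A gene was taken by its brightest probe. Where the dimmer array was at background, the fold is a bound ("at least") against its own signal or, if higher, the dimmest signal well above background there (20.9, 19.4 and 29.1 a.u. for OM, MB and NM), and a gene at background on both arrays was not measured. The shares of genes with a lower or higher ratio than a member use ratios as measured, without bounds. With 1 array per population no p-value is given, and precision is limited by their number. The counting threshold was 2-fold.

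Members and gene lists were chosen with earlier results of these data known. Named were all members, and of each list the genes 5-fold apart in any comparison with the brighter array over 100 a.u., or otherwise the gene with the largest ratio. RefSeq supplied the gene name through the accession for 23434 probes, through the symbol for 2317 and through a synonym for 1043, and 14206 kept the array's name. Positions of probes are in hg17, as deposited, and exons and UTRs were not analysed here. The 11 alternatives comprised quantile normalization, scaling to the 75th percentile, no scaling, the geometric mean of the housekeeping genes, spike-in scaling (7 probes), normexp (offset 50), no background subtraction, outlier spots kept, the mean of a gene's probes, both arrays above background, and the value table. Python 3.11.15, numpy 2.4.6, pandas 2.3.3, matplotlib 3.10.9, R 4.3.3 and limma 3.58.1 were used, and the calls were tested on simulated data.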

Additional observations from a re-analysis of the deposited data

How the results depend on the processing

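Of 30 pairs of a member and a comparison, 27 kept their sign under all 11 alternatives, including the 8 past 2-fold, and 3 did not (NFKBIE in NM against OM, and REL and RELA in MB against OM, all near 0). Some alternatives could not move a member. The value table holds the same intensities, and all member probes were above background on every array. The mean of the probes could change NFKBIB and TNFAIP3 alone. NFKB1 in MB against OM, near 0 and down to -0.28, counts as kept. So does NFKBIB in MB against NM, although its NM_002503 probe read -0.65 there. Spike-in scaling was chosen after seeing the data. Members 2-fold lower in MB than OM numbered 2 instead of 1 with scaling to the 75th percentile, quantile normalization or spike-in scaling, where NFKB2 joined BIRC3. Members 2-fold higher in MB than NM numbered 2 instead of 1 with no scaling, where REL joined NFKBIB, and 0 with the mean of the probes. Members 2-fold lower in MB than NM numbered 3 instead of 4 with quantile normalization or no scaling, where RELB (-0.77 and -0.89 on the log2 scale) fell short. Members 2-fold higher in NM than OM numbered 0 instead of 2 with quantile normalization, no scaling or spike-in scaling. Members 2-fold lower in NM than OM numbered 1 (REL) instead of 0 with no scaling or spike-in scaling. With ratios at background taken as measured rather than as bounds, the median log2 ratio of MB to OM over all genes was 0.09 with the housekeeping scaling, -0.10 with the 75th percentile and -0.19 with the spike-ins, and such shifts move all genes of a comparison together. No paired analysis was possible because each population has 1 array, and for the same reason no replicate could be left out. Every ratio rests on 1 culture per population. All member probes were well above background, but ratios of the dim REL depended on the background step. Its log2 ratio of MB to NM went from 0.97 to 0.69 with normexp and 0.75 with no background subtraction. Genes of the pathway lists were followed under the alternatives by the list median, not gene by gene. This leaves out folds from dim signals, such as those of PTGS2 and IRAK2 in OM and of OTUD7B in NM.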
